A study of Mus musculus with 14 samples.

Results

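The genes described here are 7 lysosomal cathepsins, Ctsb, Ctsc, Ctsd, Ctsh, Ctsl, Ctss and Ctsz, and 3 genes for inhibitors or inhibitor-like proteins, Cst3, Ctla2a and Ctla2b. They are 10 of the 34797 gene names that the scanner files of the series give. Each was found by its name among the non-control spots, and where a gene had several probes, the probe chosen by the highest mean log2 intensity over the 14 arrays stood for it. That mean intensity is not a result, and the difference of Ctla2a between laser-captured sinuses was already known when the genes were picked, so it is given as a description of these arrays. The samples were lymph-node lymphatic endothelial cells of C57Bl/6 mice, and each was amplified and hybridised, labelled with Cy3, to its own 1-colour Agilent array. FACS, sorting of living cells from digested nodes, gave 2 medullary and 2 subcapsular samples of 1200 cells each, taken with antibodies to CD73, podoplanin and a lineage cocktail and with a dead-cell dye. LCM, laser-capture microdissection from frozen sections of inguinal, axillary and brachial nodes stained for CD31 and F4/80, gave 5 medullary and 5 subcapsular samples of 50 cells each. The FACS nodes also came from other sites, the mesenteric and cervical nodes among them. The labels call the samples of a group biological replicates without saying whether each came from another animal, so the p-values measure the spread between these samples.

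Cathepsins are proteases of the lysosome, made as proenzymes whose propeptide covers the active site until it is cut off in the acid compartment. Most of those here are cysteine proteases, Ctsd is an aspartic protease, and together they degrade what a cell takes up, which for sinus-lining cells and neighbouring macrophages includes material carried in lymph. Cystatins such as the product of Cst3 block cysteine cathepsins outside and inside cells, and Ctla2a and Ctla2b encode proteins that resemble a cathepsin propeptide without the protease, first known from activated T cells and mast cells.

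Ctla2a and Ctla2b are near copies of each other, and their start regions are shown to describe the pair. The array values rest on the probes shown further below, about which the likeness of the start regions says nothing. In RefSeq on GRCm38.p6, both lie on the minus strand of chromosome 13, Ctla2b at chr13:60895351-60897934 and Ctla2a at chr13:60934155-60936625, with 36.2 kb and 1 annotated gene between them. Ctsl lies 3.43 Mb further along the same chromosome. The windows run from 250 bases before to 50 after a listed start. They lie at chr13:60936576-60936875 for Ctla2a and chr13:60897398-60897697 for Ctla2b. For Ctla2a the start is the outer of its listed ones, at the end of the gene span. For Ctla2b it lies inside the gene span given above, as does the whole window. Capitals mark bases of the overlapping stretch that have no identical partner in the other window.
Ctla2a: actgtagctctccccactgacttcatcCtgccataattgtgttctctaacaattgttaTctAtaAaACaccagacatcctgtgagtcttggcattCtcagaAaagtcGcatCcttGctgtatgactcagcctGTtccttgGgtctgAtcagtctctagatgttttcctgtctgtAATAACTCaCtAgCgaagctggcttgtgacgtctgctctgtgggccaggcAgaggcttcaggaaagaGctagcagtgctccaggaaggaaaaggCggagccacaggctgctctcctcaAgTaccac
Ctla2b: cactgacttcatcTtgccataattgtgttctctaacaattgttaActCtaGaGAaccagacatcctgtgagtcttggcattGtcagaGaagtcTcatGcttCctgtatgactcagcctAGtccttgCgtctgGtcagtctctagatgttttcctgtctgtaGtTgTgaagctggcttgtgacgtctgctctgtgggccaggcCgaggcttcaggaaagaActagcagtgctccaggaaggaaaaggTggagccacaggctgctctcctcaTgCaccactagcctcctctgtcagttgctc
Of 278 aligned base pairs, 255 were identical, or 91.7%.

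RefSeq windows were at hand for 8 of the 10 genes, and 2 motifs were searched in them on both strands. The letters CACGTG, the core of the element that the lysosomal regulator Tfeb is known to bind, occurred in the windows of Ctsd and Ctsl. They occurred in 7.15% of 32851 windows of 300 bases. The Ctsd window is shown because it holds the motif more than once, in capitals, beginning 245 and 98 bases before the start. It lies at chr7:142387778-142388077 on the minus strand of GRCm38.p6.
Ctsd: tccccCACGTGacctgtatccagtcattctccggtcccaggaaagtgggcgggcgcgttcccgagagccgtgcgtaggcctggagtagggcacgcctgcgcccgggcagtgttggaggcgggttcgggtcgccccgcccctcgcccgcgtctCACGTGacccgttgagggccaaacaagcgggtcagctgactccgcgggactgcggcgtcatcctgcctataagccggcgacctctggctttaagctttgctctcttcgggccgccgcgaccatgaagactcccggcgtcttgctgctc
The letters TATAAA occurred in the windows of Ctla2a and Ctss and in 13.6% of all windows. These matches describe the letters and say nothing about binding.

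The values below are log2 signals over the 75th percentile of the same array's non-control spots, so 0 is that percentile and 1 unit is a doubling. Between 66.47% and 78.79% of non-control probes were well above background on the FACS arrays, and no spot was saturated. On the LCM arrays the share was 67.26% to 75.35% in medullary and 50.58% to 68.99% in subcapsular samples. The 75th percentile used for scaling was lowest on subcapsular LCM replicate 2, at a log2 signal of 6.92. Detection thus went with sinus in LCM, and its part in the LCM differences was not tested. The number of arrays limits the precision. The 14 arrays lay on 2 slides, with medullary LCM arrays 4 and 5 and the 4 FACS arrays on slide 2 and all other LCM arrays on slide 1. The markers of the labelled cell type were dim. Prox1, the transcription factor that sets lymphatic identity, was above background on all 14 arrays, but Lyve1 and Mmrn1 were above it on 0 of 2 medullary FACS arrays, Flt4 on 0 of 2 subcapsular FACS arrays, and Pdpn on 1 of 2 subcapsular FACS and 1 of 5 subcapsular LCM arrays. Medullary minus subcapsular, 4 of 5 lymphatic markers tested in LCM were negative, with a median of -0.59. In FACS 3 of 4 were positive, with a median of 2.01, Pdpn at 4.43 and Mmrn1 at -3.99, and none was called in either. Markers of other cells were present in every group, and their summed levels stand beside the results they moved with.

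Ctla2a, whose product is known to inhibit cathepsin L, was the only one of the 10 genes called between the sinuses. On the LCM arrays it stood at 2.36, 2.74, 1.92, 1.93 and 1.92 in medullary replicates 1 to 5, against -6.06, -5.53, -2.60, -1.44 and -4.93 in subcapsular replicates 1 to 5. All 5 medullary samples lay above all 5 subcapsular ones, and subcapsular replicates 1 and 2 were not well above background. The means were 2.17 ± 0.37 in medullary and -4.12 ± 2.00 in subcapsular cells (SD, n = 5 each), a difference of 6.29 with SE 0.87. Under normexp background correction the difference was 3.80 (limma adjusted p = 0.00422). The adjusted p of limma's moderated test over 27346 genes was 0.0240, and an exact two-sided permutation test gave 0.00794, the smallest value that 5 against 5 allows. Among scalings, slide positions and arrays left out, the call was lost under quantile normalization, in the deposited log2 table, with slide row fitted as a block and without medullary replicate 2, at differences of 6.15 to 6.39 (limma adjusted p = 0.0599, 0.0662, 0.0595 and 0.0590). Of all genes tested, 0.179% were called in either direction and 1.07% had medullary values wholly above the subcapsular ones.

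In sorted cells Ctla2a lay the other way round. It was at -0.85 and -1.06 in medullary replicates 6 and 7, against -0.15 and 0.47 in subcapsular replicates 6 and 7. The medullary sorted samples were thus the lower ones, by 1.12 with SE 0.60 (limma adjusted p = 0.244), a difference that did not pass the test. The sinus difference itself differed between FACS and LCM by -7.41 with SE 1.30 (limma adjusted p = 0.0196 for the interaction over all 14 arrays). Of 29631 genes, 1.38% were called for the interaction in either direction and 0.739% in the negative one, and Ctla2a was 1 of 10 among the genes described here. The interaction was not called without subcapsular FACS replicate 6 or 7 (limma adjusted p = 0.0790 and 0.178), where the 1 array left in that group is assumed to vary like the other groups, nor without array weights (limma adjusted p = 0.0610). All 11 blood endothelial markers had a negative one, with a median of -5.34, as had all 4 pan-endothelial markers, with a median of -3.78, and Pecam1 at -8.80, Ackr1 at -6.85 and Plvap at -5.34 were called (limma adjusted p = 0.0129, 0.0185 and 0.0251). Of 5 T cell markers, 4 had a negative and 1 a positive interaction, with a median of -2.15 and none called. The part of any of these markers in the interaction of Ctla2a was not tested. The level of Ctla2a in FACS minus LCM was -3.13 in medullary and 4.27 in subcapsular cells, so the mean over sinuses, 0.57, was near the 0.20 of the median gene.

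Ctla2b followed a similar order with more scatter. In laser-captured cells it was at 3.63, 3.80, 3.14, 2.79 and 4.24 in medullary samples, against 3.1, -4.65, 0.41, 3.78 and -2.11 in subcapsular cells. The medullary samples were tight while the subcapsular ones spanned 8.44 log2 units, replicate 2 was not well above background, and the groups overlapped. The difference was 3.42 with SE 1.44 (limma adjusted p = 0.403). Without subcapsular replicate 2 it was 2.23. In sorted cells Ctla2b was at 0.55 and 0.55 in medullary cells, against 1.95 and 3.72 in subcapsular cells, lower by 2.28 (limma adjusted p = 0.153), and its interaction of -5.70 did not pass (limma adjusted p = 0.164).

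The probes that measured the pair are shown because a shared stretch would mix their signals. Both are 60 bases long, the longest run of letters they share has 5 bases, and positions are those of the files on mm9. Shown are bases 31 to 60 of the Ctla2a probe, at chr13:61036134-61036193 on the minus strand, with a polyadenylation hexamer in capitals, and bases 1 to 30 of the Ctla2b probe, at chr13:60997410-60997469 on the minus strand.
Ctla2a probe: catgcAATAAAactactagttttggcagtc
Ctla2b probe: ctcaatgtgtagaggagaaatggctcctga
Whether either probe takes up the other transcript was not tested.

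**Figure D1:**
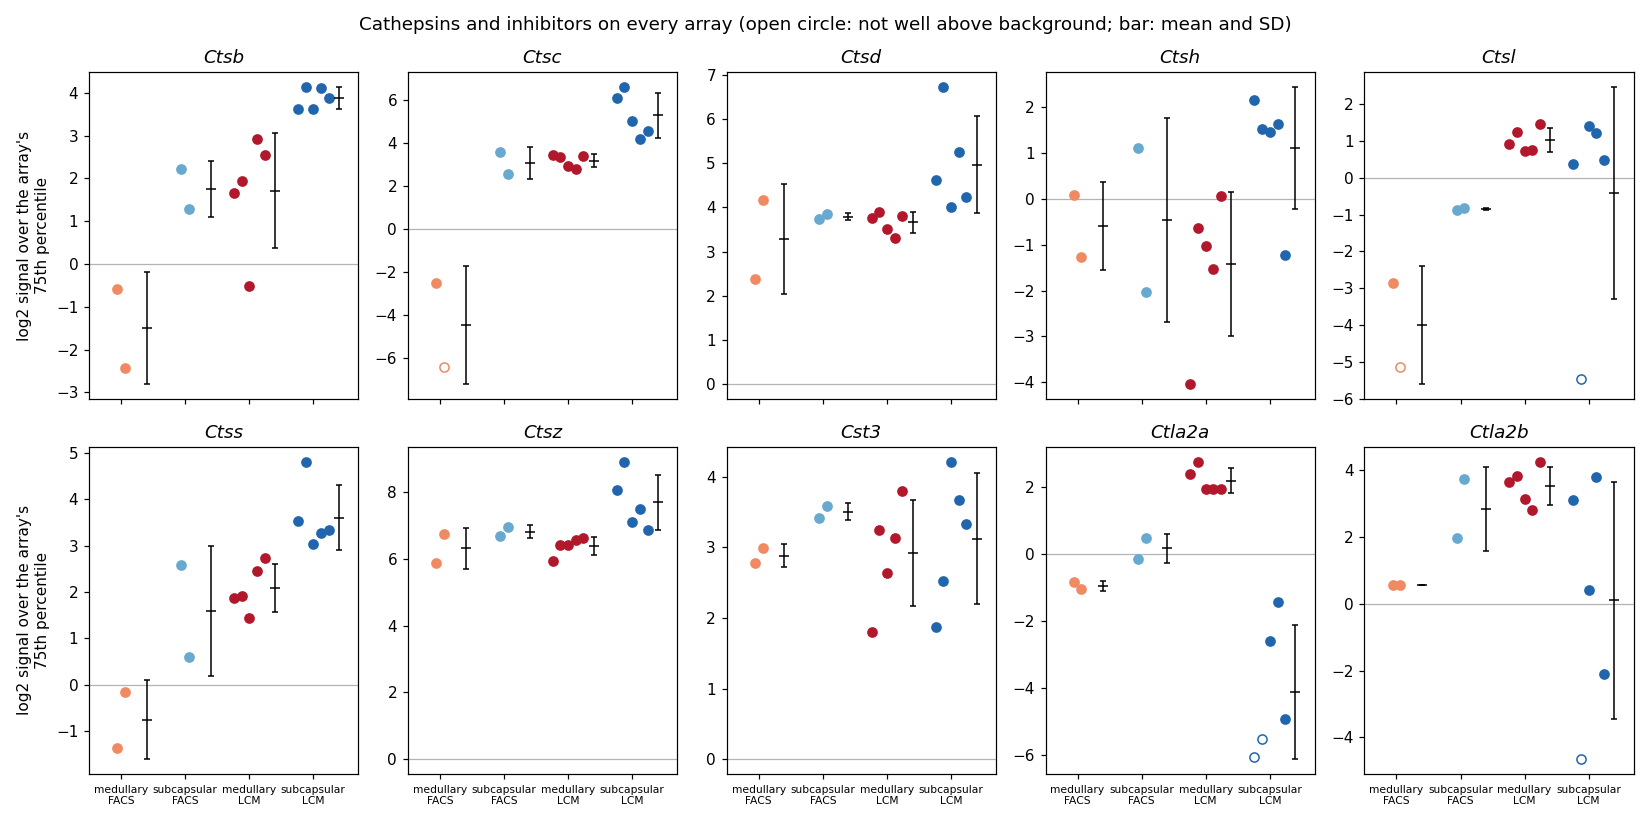
Log2 signal over the array's 75th percentile (vertical axis) of each of the 10 genes on all 14 arrays, by sinus and isolation, with open circles for arrays where the probe was not well above background and bars for the mean and SD (n = 2 for FACS, n = 5 for LCM). The 5 medullary LCM samples of Ctla2a sit between 1.92 and 2.74, above the 5 subcapsular LCM samples, while its 2 medullary FACS samples lie below the 2 subcapsular ones.

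Among the endopeptidases, Ctss, which trims the invariant chain of MHC class II and stays active outside the lysosome, was lower in medullary than in subcapsular cells in every comparison of the arrays. After LCM it was at 1.87, 1.91, 1.43, 2.46 and 2.73 in medullary cells, against 3.53, 4.81, 3.04, 3.28 and 3.34 in subcapsular cells. No medullary sample reached a subcapsular one, and subcapsular replicate 2 stood above its group. The difference was -1.52 with SE 0.51 (limma adjusted p = 0.314). After FACS it was at -1.36 and -0.16 in medullary cells, against 2.57 and 0.59 in subcapsular cells, a difference of -2.34 with SE 0.99 (limma adjusted p = 0.181). Neither comparison of the sinuses passed the test.

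Ctsb, an abundant cysteine cathepsin that also trims dipeptides, had the same order. Its LCM values were 1.66, 1.94, -0.52, 2.92 and 2.55 in medullary cells, against 3.61, 4.14, 3.62, 4.12 and 3.87 in subcapsular cells. The groups did not overlap, and medullary replicate 3 was the lowest of the 10. The difference was -2.16 with SE 0.66, the medullary mean being 4.48-fold lower (limma adjusted p = 0.265). Its FACS values were -0.58 and -2.43 in medullary cells, against 2.21 and 1.28 in subcapsular cells, a difference of -3.25 (limma adjusted p = 0.122).

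Ctsl, the protease whose propeptide the Ctla2 proteins resemble, did not share that order on the LCM arrays. It was at 0.91, 1.25, 0.74, 0.75 and 1.47 in medullary cells, against 0.37, -5.48, 1.40, 1.23 and 0.49 in subcapsular cells. The ranges overlapped, and subcapsular replicate 2 was not well above background and lay far under the other 4. The difference of 1.42 with SE 1.18 (limma adjusted p = 0.691) was 0.15 without that array. On the FACS arrays Ctsl was at -2.86 and -5.14 in medullary cells, against -0.86 and -0.82 in subcapsular cells, a difference of -3.16 with SE 0.98 (limma adjusted p = 0.131). Medullary replicate 7 was not well above background there.

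Ctsc, the dipeptidyl peptidase that activates the granule proteases of immune cells, lay far apart between the sorted sinuses. After FACS it was at -2.53 and -6.41 in medullary cells, the second not well above background, against 3.58 and 2.54 in subcapsular cells. The medullary samples lay far below, with a difference of -7.53 and SE 1.52 (limma adjusted p = 0.0928). After LCM it was at 3.45, 3.33, 2.93, 2.76 and 3.38 in medullary cells, against 6.06, 6.60, 5.03, 4.16 and 4.53 in subcapsular cells. Those groups did not overlap either, with a difference of -2.10 and SE 0.57 (limma adjusted p = 0.219). The interaction was -5.43 with SE 1.32 and missed the threshold (limma adjusted p = 0.0609), and it was -7.36 without medullary FACS replicate 6 (limma adjusted p = 0.00239), where the only medullary FACS array left is at background and its spread is taken from the other groups.

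The exopeptidases Ctsh and Ctsz differed from each other in their spread. Ctsh, an aminopeptidase, was at -4.04, -0.64, -1.03, -1.53 and 0.07 in medullary LCM cells, against 2.16, 1.52, 1.46, 1.62 and -1.22 in subcapsular LCM cells. Subcapsular replicate 5 fell among the medullary values, so the groups overlapped at a difference of -2.54 with SE 0.88 (limma adjusted p = 0.326). Its FACS values, 0.08 and -1.27 in medullary against 1.11 and -2.03 in subcapsular cells, were interleaved. Ctsz, a carboxypeptidase known from monocytes and macrophages, was at 5.95, 6.43, 6.42, 6.57 and 6.64 in medullary LCM cells, against 8.08, 8.92, 7.11, 7.5 and 6.87 in subcapsular LCM cells. The groups did not overlap, though medullary replicate 5 and subcapsular replicate 5 lay close, and the difference was -1.29 with SE 0.51 (limma adjusted p = 0.384). In FACS it was at 5.89 and 6.76 in medullary against 6.69 and 6.96 in subcapsular cells, which overlapped.

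Ctsd, the aspartic protease of the lysosome, was at 3.77, 3.89, 3.51, 3.30 and 3.81 in medullary LCM cells, against 4.61, 6.73, 4.00, 5.26 and 4.24 in subcapsular LCM cells. All medullary samples were lower, by 1.31 on average with SE 0.58 (limma adjusted p = 0.424), and by 0.87 without subcapsular replicate 2. Its FACS values were 2.39 and 4.16 in medullary against 3.74 and 3.85 in subcapsular cells, and the groups overlapped.

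Cst3, the gene for cystatin C, gave no order between the sinuses on the LCM arrays. It was at 1.80, 3.25, 2.64, 3.13 and 3.79 in medullary LCM cells, against 1.87, 2.52, 4.21, 3.67 and 3.33 in subcapsular LCM cells, a difference of -0.20 with a 95% interval of -1.53 to 1.13. The FACS values were 2.77 and 2.99 in medullary against 3.41 and 3.58 in subcapsular cells, a difference of -0.62 with an interval of -2.18 to 0.95. These intervals do not exclude a change of about 1 log2 unit. The sign of the LCM difference changed with the scaling, to 0.52 under quantile normalization and 0.54 in the deposited log2 table.

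Over the LCM arrays, 6 of 7 cathepsins had a negative difference, with a median of -1.52, and 0 of 7 passed the adjusted test. Of all genes tested, 46.1% had a negative difference and the median was 0.12, while of the 13756 genes above background on all 14 arrays, to which 6 of the 10 belong, 58.9% were negative and the median was -0.20. Of the 10 genes, 5 had medullary values wholly below the subcapsular ones, against 1.89% of all genes, and 6 were lower at an unadjusted p under 0.05, against 4.42% of all genes. The 6 negative cathepsin differences kept their sign under every scaling tried and without any 1 array, but not their size. Under quantile normalization they were -0.66 for Ctss, -0.49 for Ctsd, -0.71 for Ctsz, -1.26 for Ctsc, -1.47 for Ctsb and -2.52 for Ctsh, and Ctsz was -0.60 when scaled to probes detected on every array. The difference within slide 1, 3 medullary against 5 subcapsular arrays, was -2.85 for Ctsb, -2.04 for Ctsc, -1.24 for Ctsd, -3.01 for Ctsh, -1.86 for Ctss, -1.43 for Ctsz and 6.45 for Ctla2a. On that slide all medullary arrays lay in row 2 and subcapsular replicates 1 to 4 in row 1. Sinus there nearly coincided with row, so this difference does not separate the 2. Within row 2 of the slides, 3 medullary arrays against 1 subcapsular array, Ctla2a differed by 7.27 and the 6 cathepsins by -0.51 to -2.85.

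Macrophage markers moved with the cathepsins on the LCM arrays. All 15 tested of 17 had a negative difference, with a median of -2.10 and none called, and their summed signal ranged over 390 to 548 times the 75th percentile in medullary against 634 to 2450 in subcapsular samples. The smallest p among them belonged to Timd4, Lyz1 and Siglec1, at -3.08, -2.77 and -4.50. Without Itgam the sums were 89.6 to 190 in medullary against 346 to 1580 in subcapsular samples. Marco was the highest marker left in them, at a mean log2 level of 6.24 in medullary and 8.34 in subcapsular samples. Subcapsular replicates 1 and 2 had the highest full sums, 1370 and 2450, and with replicate 2 left out the differences were -2.10 for Ctsb, -1.77 for Ctsc and -1.22 for Ctss. The B cell markers were lower in medullary cells too, 4 of 4, at 61.1 to 106 against 99.3 to 211 in subcapsular cells, and none was called. Blood endothelial markers, those of high endothelial venules included, moved with Ctla2a, 10 of 11 positive with a median of 2.98, at a summed signal of 223 to 367 in medullary against 42.3 to 186 in subcapsular samples. Of these, Fut7, Ackr1 and Chst4 were called higher, by 6.79, 5.47 and 4.51 (limma adjusted p = 0.00428, 0.0153 and 0.0441). Of 5 T cell markers 4 were positive and 1 negative, with a median of 1.21 and none called. Their sums overlapped, at 16.2 to 23.2 in medullary against 6.90 to 44.1 in subcapsular samples. Mast cell markers summed to 6.61 to 17.3 against 4.89 to 44.0, with 1 positive, 2 negative and a median of -0.18. In these bulk samples fewer cells of a type and less RNA per cell cannot be told apart, and the part of other cell types in these differences was not tested.

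On the FACS arrays all 10 genes had a negative difference, as did 39.5% of all 27649 genes tested, whose median was 0.83. None was called, as for all genes, of which 0% passed the adjusted threshold in limma, while 9191 had an unadjusted p under 0.05. Medullary values lay wholly below subcapsular ones for 7 of the 10 and above for 0, against 25.7% and 44.3% of all genes. At an unadjusted p under 0.05, 3 of the 10, Ctsb, Ctsc and Ctsl, were lower, against 13.1% of all genes. The medullary arrays lay in row 2 and the subcapsular arrays in row 1 of the slide, so sinus and row cannot be told apart in FACS. An exact permutation test of 2 against 2 samples cannot go below 0.333. When all 14 arrays shared 1 estimate of the spread, 4967 genes were called in FACS, and Ctsb, Ctsc and Ctss among them were lower (limma adjusted p = 0.0250, 0.00109 and 0.0453). The summed macrophage signal was 602 to 652 in medullary against 371 in each subcapsular sample, and without Itgam the sums were 76.5 and 136 in medullary against 109 and 115 in subcapsular samples. The highest marker left was Marco, at a mean log2 level of 6.28 in medullary and 6.15 in subcapsular samples. Of 16 macrophage markers tested 11 had a negative difference and 5 a positive one, with a median of -0.31. Siglec1 was at -3.92, Timd4 at -5.45 and Lyz2 at -2.92, while Fcgr1 was at 1.74, Itgam at 1.01 and Csf1r at 0.99. Medullary values lay wholly below the subcapsular ones for 5 of these markers and wholly above for 3. The summed blood endothelial signal was 5.15 and 55.3 in medullary against 79.7 and 223 in subcapsular samples, and 5.01 and 6.82 against 13.3 and 31.2 without Glycam1, with 5 markers positive and 5 negative at a median of 0.06. All 4 pan-endothelial markers lay wholly lower in medullary samples, with a median of -2.91 (Pecam1 -8.12, Cdh5 -3.07, Tek -2.74), and all 4 B cell markers were negative, with a median of -1.57. Mast cell markers summed to 15.5 and 17.0 in medullary against 3.37 and 4.70 in subcapsular samples. T cell markers summed to 13.7 and 15.9 against 21.5 and 33.2, but overlapped without Cd3d, at 6.04 and 11.4 against 6.81 and 9.70. Of the 5 T cell markers 3 had a negative difference and 2 a positive one, with a median of -1.47. None of these markers was called, and their part was not tested.

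**Figure D2:**
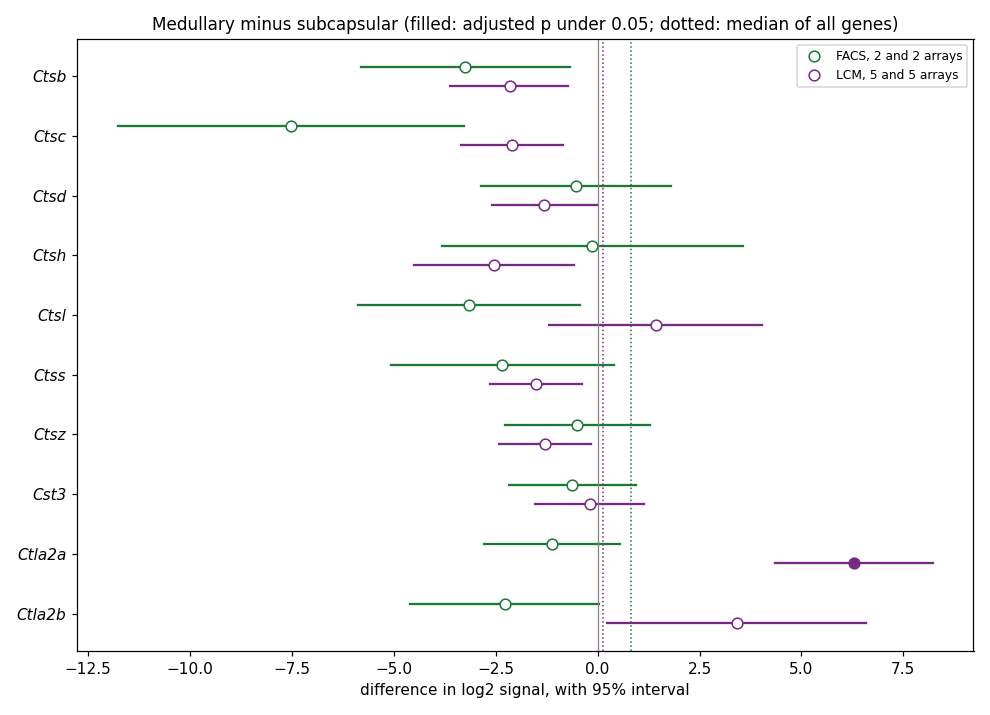
Difference in log2 signal, medullary minus subcapsular (horizontal axis), of the 10 genes on the FACS and the LCM arrays, with 95% intervals, filled points for an adjusted p under 0.05 and dotted lines at the median of all genes (0.83 in FACS, 0.12 in LCM). Ctla2a at 6.29 in LCM is the only filled point, and all 10 FACS differences lie below 0.

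Sorted cells had less of 3 cathepsins than laser-captured cells. Averaged over the sinuses, FACS minus LCM was -4.93 with SE 0.66 for Ctsc (limma adjusted p = 0.000887), -2.67 with SE 0.55 for Ctsb (limma adjusted p = 0.0162) and -2.43 with SE 0.48 for Ctss (limma adjusted p = 0.0130). Those 3 of the 10 genes were called, all lower, where 3.86% of 29631 genes were called in either direction and 1.97% lower. Ctsl was at -2.74 with SE 0.92 and missed the threshold (limma adjusted p = 0.138), but passed without subcapsular LCM replicate 2, at -3.37 (limma adjusted p = 0.00135). The other 6 genes, Ctsd, Ctsh, Ctsz, Cst3, Ctla2a and Ctla2b, lay between -0.78 and 0.57.

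By sinus, FACS minus LCM was -7.64 in medullary and -2.21 in subcapsular cells for Ctsc, -3.21 and -2.13 for Ctsb, and -2.84 and -2.02 for Ctss, and the interaction passed for none of the 3. Within slide 2, which holds the medullary samples of both isolations, the medullary difference was -7.54 for Ctsc, -4.24 for Ctsb and -3.35 for Ctss over 2 and 2 arrays, and none of the 3 passed there (limma adjusted p = 0.133, 0.137 and 0.142). With slide as a block the differences were -4.79, -4.04 and -3.12 and none passed (limma adjusted p = 0.13, 0.0842 and 0.167). The call of Ctsb was also lost without subcapsular FACS replicate 6 or 7 (limma adjusted p = 0.0518 and 0.105) and that of Ctss without replicate 7 (limma adjusted p = 0.0969). Isolation goes with cell number, nodes and digestion, which cannot be told apart. Of 17 macrophage markers, 4 were called lower in FACS as well, Timd4 at -5.24, C1qa at -4.65, Lyz1 at -3.39 and Lyz2 at -3.30. Other cell types' markers were called too, with Pecam1 at -3.96, Cdh5 at -2.91, Plvap at -4.08, Pdgfra at -5.56 and Dcn at -3.03 lower and Itgax at 2.70 higher, and the part of any of these was not tested.

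**Figure D3:**
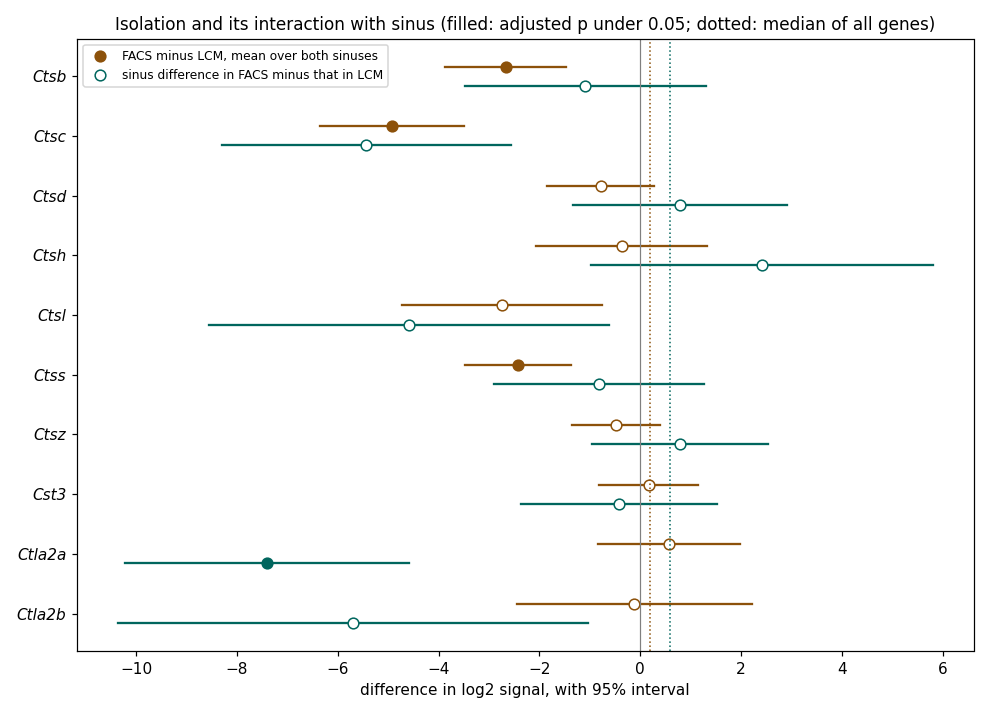
For the 10 genes, the difference in log2 signal of FACS minus LCM averaged over both sinuses, and the medullary minus subcapsular difference in FACS minus that in LCM (horizontal axis), with 95% intervals and filled points for an adjusted p under 0.05. Ctsb, Ctsc and Ctss are filled below 0 for the first quantity, and Ctla2a at -7.41 is the only filled point for the second.

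For Ctsc and Ctsd a second probe was on the array, and the probes of each disagreed, those of Ctsd in sorted cells and those of Ctsc in both isolations. The Ctsd probe used above, at chr7:149561962-149562021 on the minus strand of mm9, differed by -0.52 in FACS and -1.31 in LCM. The second Ctsd probe, whose listed positions chr7:149566847-149568505 span more than its 60 bases, differed by -7.45 in FACS and -1.55 in LCM. On the LCM arrays the 2 probes thus gave like values, and on the FACS arrays the second was well above background on 1 of 2 medullary samples. Bases 31 to 60 of each probe are shown, the second lying farther toward the 5' end of the gene.
Ctsd probe used: gaacctggggggttacctagggcttgaccc
Ctsd second probe: tcaaaggcaagaggtatcaaggtggagaaa
The second Ctsc probe, listed under a separate Ensembl transcript, differed by -3.43 in FACS and 0.72 in LCM, against -7.53 and -2.10 for the probe used, so the signs were opposite in LCM. With the mean of both probes the LCM difference of Ctsc was -0.69. With the mean of both probes, the Ctsc difference of FACS minus LCM was -1.82 and no longer passed (limma adjusted p = 0.0868), and that of Ctsd was -2.18 and passed (limma adjusted p = 0.0222).

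Other genes of the lysosome were read from lists chosen for their function, with earlier results of these data known. On the LCM arrays 0 of 22 other lysosomal hydrolases and activators were called, 16 had a negative difference and the median was -1.36, beside 0.12 for all genes. Lipa, the acid lipase, and Ppt1, a thioesterase, were among those of smallest p in that list, at -3.02 and -4.97 (limma adjusted p = 0.161 and 0.284). Of 19 tested genes of the lysosomal membrane, its acidification and enzyme sorting, 15 were negative with a median of -1.21 and none called. Cd63, a tetraspanin of late endosomes, the proton pump subunit gene Atp6v1h and the cystine exporter gene Ctns led it at -2.65, -3.1 and -2.37. All 9 genes of the MHC class II route were negative with a median of -1.30, H2-DMa, which loads peptides, at -2.49 and H2-Aa and H2-Ob at -1.48 and -1.40, again with none called.

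Other members of the cathepsin and cystatin families did not lean one way. Of 7 other cathepsins and legumain tested, 4 were negative, with a median of -0.16. Ctsw, a cathepsin of cytotoxic lymphocytes, was at 3.44, Ctsa, a serine carboxypeptidase, at -1.59 and Ctsf at -2.03 (limma adjusted p = 0.367, 0.406 and 0.704). Of 8 other cystatins and inhibitors tested, 5 were positive with a median of 0.43, and Cst6, Cst7 and Stfa1 stood at 4.71, 3.41 and 2.52 (limma adjusted p = 0.178, 0.325 and 0.472). On the FACS arrays 19 of 22 other hydrolases were negative with a median of -2.44, 13 of 18 membrane genes with -1.74 and 8 of 9 MHC class II genes with -1.74, beside 0.83 for all genes, and none was called. In FACS minus LCM, Ifi30, a lysosomal thiol reductase, Cd63 and Ctns were lower, at -2.06, -2.80 and -2.75 (limma adjusted p = 0.0254, 0.0153 and 0.0451), and no gene of these 5 lists was called higher or called for the interaction.

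**Figure D4:**
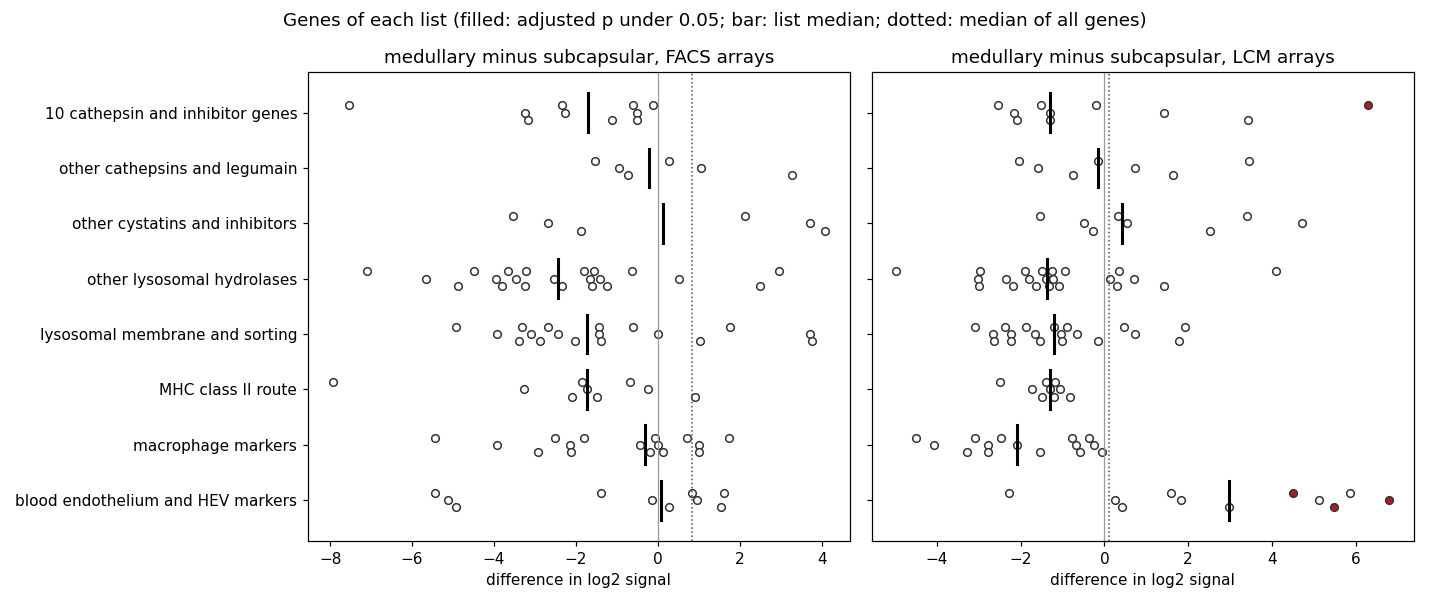
Difference in log2 signal, medullary minus subcapsular (horizontal axis), of each tested gene in the lists, on the FACS and the LCM arrays, with filled points for an adjusted p under 0.05, a bar at each list's median and a dotted line at the median of all genes. On the LCM arrays the other lysosomal hydrolases have a median of -1.36 and the macrophage markers of -2.10, and the filled points are Ctla2a and 3 blood endothelial markers.

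The genes whose profiles over the 14 arrays were nearest to those of 3 of the genes were sought among 11673 symbols above background on at least 10 arrays, by the root mean square difference of log2 values centred on each gene's mean. Nearest to Ctla2a were Serpinb9, Ahr and Ubap2, at 1.45, 1.61 and 1.64, where the median over all genes was 3.30. Serpinb9, an inhibitor of granzyme B, differed between medullary and subcapsular cells by 0.38 in FACS and 4.97 in LCM (limma adjusted p = 0.0578 in LCM). Ahr differed by -1.85 and 3.01 and Ubap2 by -1.49 and 4.72 (limma adjusted p = 0.341 and 0.0608 in LCM). As the 3 were chosen for their likeness to Ctla2a on the same arrays, their differences are not separate results. Nearest to Ctss were Sfrs18, Shfm1 and Gvin1, at 0.52, 0.54 and 0.54, with a median of 2.24. Nearest to Cst3 were Ppp1r2, Morf4l1 and Ier3ip1, at 0.50, 0.52 and 0.57, with a median of 1.80.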

How the data were processed

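Gene expression was measured on 14 one-colour arrays of amplified RNA from 50 cells (LCM) or 1200 cells (FACS) each. Agilent Feature Extraction 10.7.3.1 produced the authors' scanner files, per the file headers, and its background-adjusted intensity per spot was used. The authors also deposited a log2 table, made in a way not given in the sources used here, with a median near 5.43 on every array, and it served as an alternative.

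From the intensities, log2 values minus each array's 75th percentile over non-control spots were computed. Outlier spots were left out, and a gene entered when its probe was well above background on at least 3 of 5 LCM arrays or both FACS arrays of a sinus. Fits used limma 3.58.1 in R 4.3.3 over all genes with Benjamini-Hochberg adjustment, called at an adjusted p under 0.05. Fits of all 14 arrays weighted FACS arrays by 1.40 and LCM arrays by 0.874. The fits were tried on simulated data with normal noise of equal spread within an isolation and no background floor. Such data do not show how the fits behave for signals near background. Replicate numbers recur in both sinuses, but same-numbered samples did not deviate together (correlations -0.0204 to 0.00498 in LCM and -0.0109 in FACS), so no pairing was used. Alternatives were other background corrections, scalings, filters, probe summaries, blocks and each array left out. Genes and lists were chosen with earlier results of these data known. The text names from each list the called genes or, where fewer than 3 were called in LCM, those of lowest p up to 3, and for Ctla2a, Ctss and Cst3 the 3 nearest profiles. A gene that this rule would name is not reported here. Promoter sequences are RefSeq's on GRCm38.p6, and probe positions are the files' on mm9.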

Additional observations from a re-analysis of the deposited data

Results flagged for a closer look

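Of 20 groups of 5 samples screened for a value far from the rest, 3 held one, and chance alone marks about 1 in 20. Ctsl was at -5.48 in subcapsular LCM replicate 2, where the nearest of the other 4 stood at 0.37. Ctss was at 4.81 in the same sample, with the next at 3.53. Ctsh was at -1.22 in subcapsular LCM replicate 5, with the next at 1.46.

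The medullary minus subcapsular difference of Ctla2a was -1.12 in FACS and 6.29 in LCM, and the interaction of -7.41 passed limma's test (adjusted p = 0.0196). It did not pass without subcapsular FACS replicate 6 or 7, at -7.71 and -7.10 (limma adjusted p = 0.0790 and 0.178).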

How the results depend on the processing

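Over 450 recomputed differences of single genes under other settings, 416 kept their sign and their side of the threshold, 13 dropped out of the calls, 11 entered them and 10 changed sign, and over 420 with 1 array left out these numbers were 401, 6, 2 and 11. The differences within slide 2 in these counts, of medullary cells only, were set against means over both sinuses. In LCM, 0 of the 10 genes were called instead of 1 under quantile normalization, in the deposited log2 table, with slide row as a block and with a replicate block (Ctla2a 6.29, limma adjusted p = 0.167), and over the arrays left out the count was 0 to 1, the 0 without medullary replicate 2. In FACS, 3 were called instead of 0 with all 14 arrays in 1 fit. For FACS minus LCM, 0 were called instead of 3 with slide as a block, and 1 to 4 with 1 array left out, the 1 without subcapsular FACS replicate 7. Within slide 2, where only medullary cells were compared, 0 were called. For the interaction, 2 instead of 1, Ctla2a and Ctsc, were called under normexp, quantile normalization, scaling to probes detected on every array, the deposited table, the mean of a gene's probes, or trended robust variances. None, 0, was called with a replicate block or without array weights, and 0 to 2 with 1 array left out, the 0 without either subcapsular FACS array and the 2 without medullary FACS replicate 6. The replicate block changed no other call of the 10 genes.

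Signs changed only for differences that had not passed the test. In LCM, Cst3 was 0.52, 0.50 and 0.54 under quantile normalization, the scaling to detected probes and the deposited table, and -0.51 to 0.08 with 1 array left out. With 1 FACS array left out, Ctsd was -1.41 to 0.37 and Ctsh -1.70 to 1.44 between the sorted sinuses. For FACS minus LCM, Ctla2a was -0.35 under normexp, Ctla2b 0.08 under the scaling to detected probes and Cst3 -0.55 with slide as a block. With 1 array left out Ctsh was -1.15 to 0.42 and Ctla2b -0.71 to 0.34. Within slide 2, where only medullary cells were compared, Ctsh was 0.14, Cst3 -0.58 and Ctla2a -2.88. These signs differ from those of the means over both sinuses, -0.36, 0.17 and 0.57. Over all medullary arrays the differences were 0.84, -0.04 and -3.13, of the same signs as within slide 2. The interaction was -2.56 for Ctsd with the mean of its probes, and with 1 array left out -0.10 to 1.68 for Ctsd and -1.81 to 0.17 for Ctss.

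The number of all genes called in LCM, 49, was 8 under normexp, 15 under quantile normalization, 16 in the deposited table, 229 under the scaling to detected probes, 104 with a stricter filter, 132 with slide as a block, 255 within slide 1, 15 with row as a block and 0 with a replicate block. It was 1765 in FACS with trended robust variances and 4967 with all arrays in 1 fit, instead of 0. For FACS minus LCM it was 746 without array weights and 158 with slide as a block, instead of 1144, and 0 within slide 2 for medullary cells only. For the interaction it was 873, 1153 and 1141 under normexp, quantile normalization and the deposited table, 257 with no filter and 0 with a replicate block, instead of 409. With 1 array left out these counts were 25 to 105, 0 to 0, 614 to 1685 and 10 to 1289. Higher calls in LCM were 6 of 8, 10 of 15 and 11 of 16 under normexp, quantile normalization and the deposited table, against 47 of 49. For FACS minus LCM they were 374 of 982, 802 of 1360 and 559 of 1144 under normexp, the scaling to detected probes and the main scaling, and for the interaction 545 of 873, 110 of 470 and 190 of 409. The median LCM difference of all genes moved to -0.14 under normexp and 0.81 under the scaling to detected probes, against 0.12. Ctla2a in LCM ranged over 3.80 to 6.98 under all these settings. Signals near background, as for Ctla2a, Ctla2b and Ctsl in subcapsular LCM cells and Ctsc in medullary FACS cells, limit how well the size of a difference is known.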
